A study of Mus musculus with 90 samples.

Results

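Mitosis and spindle genes encode the cyclins, kinases, motors and structural proteins with which a cell separates its chromosomes and divides. The set described here holds 40 such genes, chosen by symbol, and all 40 were among the 18223 genes measured. They were read in the livers of 49 mice given zileuton, an inhibitor of 5-lipoxygenase, at 300 mg per kg, and of 41 mice given the vehicle, sterile distilled water. Both groups received their dose by mouth each day for 7 days. All 90 were females of the Diversity Outbred stock (J:DO), in which every animal carries its own mixture of founder genomes, and were 6 to 20 weeks old. Each animal gave 1 RNA-seq library from 25 mg of liver. The series title names the liver toxicity of the drug as the subject.

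Most hepatocytes of an adult liver are not dividing, and genes of mitosis are therefore read at low levels in whole liver. When cells leave G1, cyclins and Cdk1 build up, the DREAM complex (a repressor of cell cycle promoters) gives way to activators that include Foxm1, and genes of late S phase, G2 and mitosis are switched on together. Their products assemble the spindle, attach chromosomes to it through kinetochores, hold anaphase until every chromosome is attached, and then divide the cell by cytokinesis.

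Library totals ran from 12664579 to 38865109 estimated counts in zileuton livers (median 25083838) and from 13064928 to 41360187 in vehicle livers (median 26105475). Albumin, the main plasma protein made by hepatocytes, averaged 86941 ± 18566 CPM (counts scaled to a library of fixed size) in zileuton livers and 100019 ± 17909 in vehicle livers (SD, n = 49 and 41). The libraries labelled vehicle replicates 15, 28 and 37 were the 3 vehicle libraries nearest to the zileuton group in each of 3 genes that separated the groups. For Cyp2c29, a drug-metabolising cytochrome P450, zileuton livers lay between 3086 and 16937 CPM. These 3 vehicle libraries had 6716, 4661 and 17038 CPM of Cyp2c29, against 1006 to 3998 CPM in the other 38. For Cyp2c55, another such enzyme, they had 35.2, 37.7 and 236 CPM, against at most 17.7 in the other 38, and for Dnmt3b, a DNA methyltransferase, 1.79, 0.841 and 1.96 CPM, against at least 2.45. They were kept as labelled. Some results are also given without them, and values include them wherever this is not stated.

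The mitosis and spindle genes were higher in zileuton livers with few exceptions. Of the 35 with enough counts to test, 33 rose and 0 fell (edgeR quasi-likelihood test, Benjamini-Hochberg adjusted p under 0.05 over 13248 genes), where 14.4% of all genes tested were called higher. The median log2 fold change of the 35 was 1.72, against -0.01 for all genes tested. At least 2-fold rises were called for 32 members, where 1.03% of all genes tested met both criteria, and 7 members rose at least 4-fold. These were Ccnb1, Ckap2, Hmmr, Ckap2l, Cenpf, Cdc20 and Ccnb2. Only Aurka and Cenpa, of those tested, did not pass. Whether this reflects more dividing cells or more of these RNAs in each dividing cell cannot be told apart in RNA from whole tissue. Leaving out the 3 vehicle libraries that stood apart was chosen after seeing the data. Without them, 34 of 35 rose, with a median log2 fold change of 2.05, where 16% of all genes were called higher. Without vehicle replicate 15 alone the median was 2.01.

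Summing the 40 genes gives 1 figure for each liver. The sum was 17.005 CPM in the lowest zileuton liver, 45.5 at the median and 524 in the highest, against 12.9, 21.8 and 187 CPM in vehicle livers. Of 49 zileuton livers, 47 lay above the vehicle median and 18 lay above all vehicle livers but replicate 15, so the groups overlapped over much of their range. The top of each group was thinly filled. Zileuton replicate 7 (524 CPM) was followed by replicates 4 (197 CPM) and 10 (168 CPM), and it was the highest zileuton liver for 39 of the 40 genes. The library labelled vehicle replicate 15 (187 CPM) was followed by replicates 9 (61.4 CPM) and 26 (34.7 CPM). It was the highest vehicle liver for all 40 genes and stood above the zileuton median in all 40. Vehicle replicates 28 and 37 had sums of 29.4 and 23.7 CPM, and stood above the vehicle median in 31 and 24 of the 40 genes. The 5 highest livers held 33.95% of the zileuton sum and 31.7% of the vehicle sum, and 22.3% of the vehicle sum without the 3 libraries that stood apart.

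**Figure D1:**
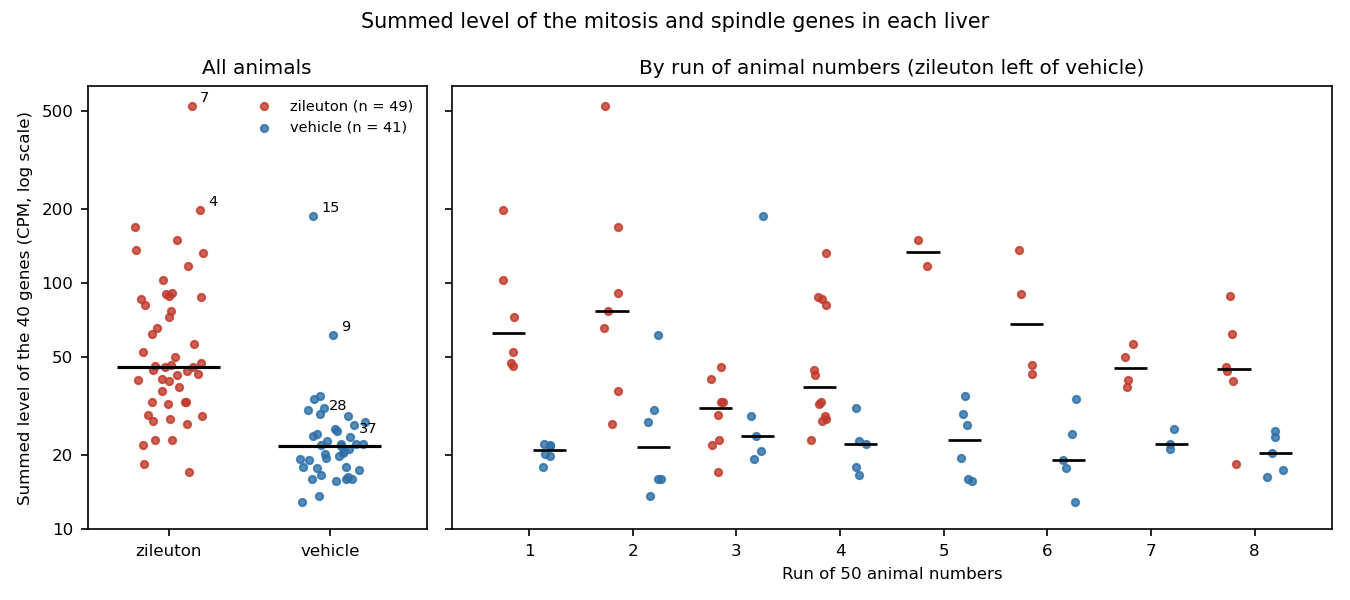
Summed level of the 40 mitosis and spindle genes (CPM, log scale), with each point 1 liver and each black line a median, for all animals (left) and for 8 runs of 50 animal numbers (right), zileuton in red and vehicle in blue. The zileuton median (45.5 CPM) lies above the vehicle median (21.8 CPM), the zileuton median is the higher in all 8 runs, and zileuton replicate 7 and vehicle replicate 15 stand above the rest of their groups.

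The animal numbers fell into 8 runs of 50, which the labels do not explain. The median summed level was higher in zileuton than in vehicle livers in each of the 8, with ratios of medians between 1.29 (run 3, 8 zileuton and 5 vehicle livers) and 5.82 (run 5, 2 zileuton and 6 vehicle livers). Taken gene by gene, 29 members had the higher median under zileuton in all 8 runs, 10 members in 7 runs and Aurka in 5. With the run as a term, 34 of 35 members were called higher, where 14.9% of all genes were. Within every run, vehicle animals held numbers 13 to 20 and zileuton animals 25 to 50, so position in the run and treatment cannot be told apart. With position as a term in place of the run, 29 of 35 members were called higher, where 1.25% of all genes were. The members' median log2 fold change was 2.17 in that fit, which extrapolates, since positions do not overlap between the groups. Genes of the circadian clock also moved with treatment. All 11 tested genes of a list that runs opposite to Bmal1 were higher under zileuton, and all 5 of a list that runs with it were lower. For Arntl, the gene of Bmal1 itself, the mean was 6.82 ± 5.74 CPM in zileuton livers and 22.6 ± 8.13 CPM in vehicle livers (SD, n = 49 and 41). With a score of these clock genes as a term, 27 of 35 members were called higher, where 1.80% of all genes were, with a median of 1.32. The score averaged 1.11 ± 1.17 in zileuton livers and -1.32 ± 1.27 in vehicle livers (SD, n = 49 and 41). That fit therefore separates the score from treatment only in part. The part of collection time in these levels was not tested, since the labels give none.

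Promoter stretches are shown for 5 of the 7 members that rose at least 4-fold and for Cenpa, which did not pass, since late cell cycle promoters are known to share 2 elements. These are the CCAAT box, bound by NF-Y, and the cell cycle genes homology region (CHR), bound by the DREAM complex and by activating MuvB complexes. Exact letters were searched on both strands, CCAAT for the box and TTTGAA or TTCGAA for the CHR. Stretches of 230 bases from RefSeq promoters (build GRCm38.p6) run from 200 bases before to 30 after the start of each gene, 5′ to 3′ along the gene. Capitals mark every CCAAT or CHR match, in either orientation.
Ccnb1 (chr13:100786457-100786686, minus strand): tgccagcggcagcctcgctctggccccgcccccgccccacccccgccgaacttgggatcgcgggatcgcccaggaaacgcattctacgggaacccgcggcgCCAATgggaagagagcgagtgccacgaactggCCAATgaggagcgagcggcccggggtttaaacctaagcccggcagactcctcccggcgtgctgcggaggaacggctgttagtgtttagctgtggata
Ccnb2 (chr9:70421525-70421754, minus strand): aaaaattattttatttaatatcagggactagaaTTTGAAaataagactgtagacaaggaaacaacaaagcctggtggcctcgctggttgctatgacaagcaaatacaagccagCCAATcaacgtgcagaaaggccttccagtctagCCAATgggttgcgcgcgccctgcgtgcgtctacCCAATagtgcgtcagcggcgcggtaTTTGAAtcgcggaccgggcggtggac
Cdc20 (chr4:118437314-118437543, minus strand): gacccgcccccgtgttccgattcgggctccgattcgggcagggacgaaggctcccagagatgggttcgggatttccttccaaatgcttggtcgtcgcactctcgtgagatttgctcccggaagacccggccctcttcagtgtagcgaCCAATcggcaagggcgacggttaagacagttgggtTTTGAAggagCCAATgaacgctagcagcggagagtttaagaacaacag
Hmmr (chr11:40733408-40733637, minus strand): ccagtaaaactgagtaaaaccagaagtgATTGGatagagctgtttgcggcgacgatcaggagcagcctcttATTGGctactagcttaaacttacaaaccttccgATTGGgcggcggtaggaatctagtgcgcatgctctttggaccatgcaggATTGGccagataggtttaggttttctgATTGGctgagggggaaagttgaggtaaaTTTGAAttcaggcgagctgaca
Ckap2 (chr8:22185790-22186019, minus strand): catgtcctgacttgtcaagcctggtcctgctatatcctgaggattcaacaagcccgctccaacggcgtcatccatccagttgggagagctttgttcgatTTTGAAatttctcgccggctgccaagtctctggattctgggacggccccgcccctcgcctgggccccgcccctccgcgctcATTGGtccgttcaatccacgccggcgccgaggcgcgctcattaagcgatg
Cenpa (chr5:30666686-30666915, plus strand): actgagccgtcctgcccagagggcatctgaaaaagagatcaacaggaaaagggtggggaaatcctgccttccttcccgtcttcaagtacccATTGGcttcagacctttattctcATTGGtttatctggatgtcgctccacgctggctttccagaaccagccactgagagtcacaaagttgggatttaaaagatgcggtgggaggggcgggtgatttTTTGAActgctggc

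Of these 6 stretches, all hold at least 1 CCAAT, with 5 in Hmmr, and all but that of Ccnb1 hold the CHR letters searched for. The searched window of 300 bases (250 before to 50 after the start) was available for 35 of the 40 members. A CHR match was present in 29 of the 35 (82.9%), against 21.7% of 27025 genes in the table. A CCAAT match was present in 26 (74.3%), against 41.1%, and both in 24 (68.6%), against 8.61%. Aurka and Cenpa, the tested members that were not called, held both. Members without a CHR match in the window were Birc5, Ccnb1, Cenpe, Melk, Nuf2 and Nusap1. Foxm1, Aurkb, Kif20a, Ccna2 and Tpx2 were not in the table. A match is only a run of letters, and no binding was measured here.

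**Figure D2:**
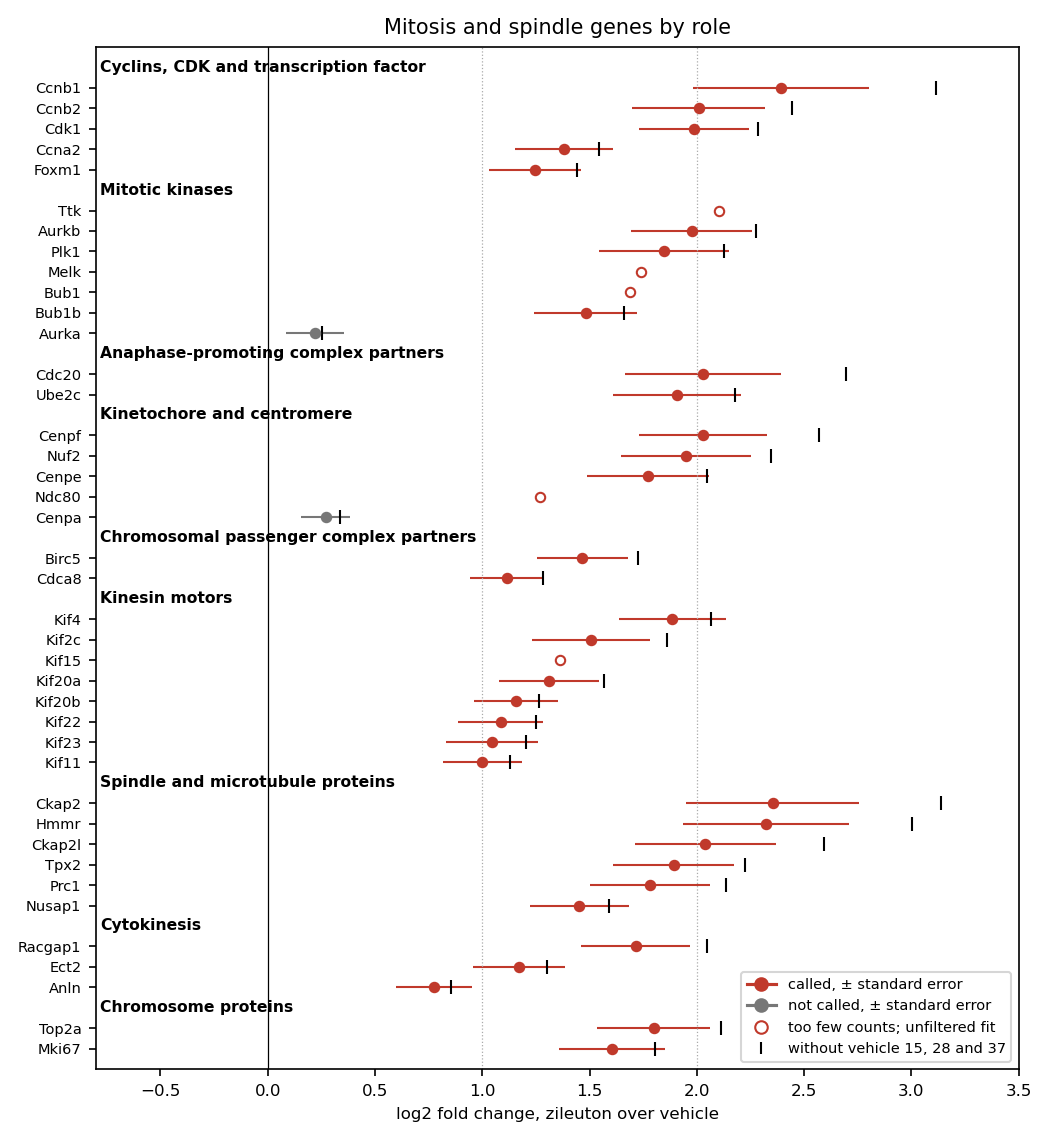
Log2 fold change of each gene, zileuton over vehicle, by role, with bars of 1 standard error; open circles are the 5 genes with too few counts for the test, from the fit without a low-count filter, and ticks are values without vehicle replicates 15, 28 and 37. Ccnb1 (2.39), Ckap2 (2.35) and Hmmr (2.32) lie farthest to the right, and Aurka (0.22) and Cenpa (0.27) stand apart at the left.

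The cyclins, their kinase and their transcription factor all rose, 5 of 5 with a median log2 fold change of 1.99. Ccnb1, cyclin B1, which drives entry into mitosis, had 0.0447 CPM in the lowest zileuton liver, 0.729 at the median and 20.0 in the highest, against 0, 0.116 and 5.68 CPM in vehicle livers. Of 49 zileuton livers, 46 lay above the vehicle median, while 5 vehicle livers had no count. Its log2 fold change was 2.39 (SE 0.41, 5.25-fold, adjusted p = 2.27e-06), the largest among the members tested, and 3.12 without vehicle replicates 15, 28 and 37. Ccnb2, cyclin B2, rose 4.03-fold (log2 2.01, SE 0.31). Cdk1, the kinase that the B cyclins activate, was read at 0.487, 2.16 and 25.5 CPM in zileuton livers, against 0.207, 0.589 and 6.73 CPM in vehicle livers. Its groups overlapped, yet 48 zileuton livers exceeded the vehicle median, and it had the lowest adjusted p of all members (log2 1.99, SE 0.26, p = 1.82e-09). Ccna2, cyclin A2 of S phase and G2, rose 2.604-fold. Foxm1, a transcription factor of G2 and mitosis genes, rose least of the 5, to 0.324, 1.10 and 9.43 CPM in zileuton livers, against 0.166, 0.543 and 4.82 CPM in vehicle livers (2.37-fold, SE of log2 0.22, adjusted p = 2.76e-06).

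Mitotic kinases rose with the exception of Aurora A. Aurkb, the kinase of the chromosomal passenger complex, stood at 0.0994, 0.710 and 10.2 CPM in zileuton livers (lowest, median and highest), against 0, 0.205 and 2.66 CPM in vehicle livers. It rose 3.93-fold (log2 1.98, SE 0.28, adjusted p = 3.49e-08), and 47 zileuton livers lay above the vehicle median. Plk1, a kinase of centrosome maturation and many later steps, rose 3.59-fold, and Bub1b, the checkpoint protein BubR1, rose 2.79-fold (log2 1.48, SE 0.24). Bub1b had 0.0447, 0.697 and 4.02 CPM in zileuton livers, against 0, 0.283 and 1.98 CPM in vehicle livers. Aurka, which works at spindle poles, had nearly the same medians, 1.94 CPM in zileuton livers (0.865 to 12.9) and 1.90 CPM in vehicle livers (1.14 to 4.69). Its log2 fold change was 0.22 (SE 0.14, adjusted p = 0.224), and 26 of 49 zileuton livers lay above the vehicle median. The checkpoint kinases Bub1 and Ttk and the kinase Melk were too low for the test, with medians of 0.253, 0.307 and 0.288 CPM in zileuton livers against 0.0854, 0.0559 and 0.0961 CPM in vehicle livers.

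Partners of the anaphase-promoting complex, the ubiquitin ligase that ends mitosis, both rose. Cdc20, its activator, had 0.198, 1.47 and 40.2 CPM in zileuton livers, against 0.0770, 0.400 and 12.97 CPM in vehicle livers. That maximum of 40.2 CPM, in zileuton replicate 7, was the highest value of any member in any liver. Cdc20 rose 4.08-fold (log2 2.03, SE 0.36, adjusted p = 5.56e-06). Ube2c, the conjugating enzyme of the complex, had 0.148, 1.16 and 22.9 CPM in zileuton livers, against 0, 0.349 and 4.69 CPM in vehicle livers, and rose 3.75-fold (log2 1.91, SE 0.30, adjusted p = 3.14e-07).

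At the kinetochore, 3 of 4 tested members rose. Cenpf, a large protein of the outer kinetochore, had 0.298, 1.02 and 9.81 CPM in zileuton livers, against 0, 0.214 and 5.74 CPM in vehicle livers. It was the only member for which all 49 zileuton livers lay above the vehicle median, and it rose 4.08-fold (log2 2.03, SE 0.30, adjusted p = 7.12e-08). Nuf2, a subunit of the Ndc80 complex that grips microtubules, rose 3.86-fold, and Cenpe, a kinetochore motor that moves chromosomes to the spindle equator, rose 3.42-fold. Cenpe lay at 0.0751, 0.591 and 6.17 CPM in zileuton livers, against 0, 0.174 and 2.22 CPM in vehicle livers. Ndc80 itself was too low for the test, with medians of 0.308 CPM in zileuton livers and 0.169 CPM in vehicle livers. Cenpa, the histone H3 variant that marks the centromere, had 1.40, 3.00 and 12.03 CPM in zileuton livers, against 1.39, 2.597 and 7.66 CPM in vehicle livers. Its log2 fold change was 0.27 (SE 0.11, adjusted p = 0.0627), and 0.34 with an adjusted p of 0.0129 without vehicle replicates 15, 28 and 37.

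The set holds 2 partners of Aurkb in the chromosomal passenger complex, which corrects faulty attachments, and both rose. Birc5, known as survivin, had 0.544, 1.90 and 17.6 CPM in zileuton livers, against 0.296, 0.708 and 6.98 CPM in vehicle livers. It rose 2.76-fold (log2 1.47, SE 0.21, adjusted p = 4.33e-08), with 47 zileuton livers above the vehicle median. Cdca8, or borealin, had 0.536, 1.37 and 10.3 CPM in zileuton livers, against 0.294, 0.707 and 3.95 CPM in vehicle livers, a rise of 2.16-fold (log2 1.11, SE 0.17, adjusted p = 1.83e-07).

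All 7 tested kinesins, motors that walk on or take apart microtubules, rose, with a median log2 fold change of 1.16. Kif4, a motor that binds chromosomes, led with 0.0989, 0.570 and 5.61 CPM in zileuton livers, against 0, 0.182 and 1.67 CPM in vehicle livers. It rose 3.69-fold (log2 1.89, SE 0.25, adjusted p = 3.92e-09), and 34 zileuton livers exceeded every vehicle liver other than replicates 15, 28 and 37. Kif11, which pushes the spindle poles apart, changed least, with 0.324, 1.28 and 8.01 CPM in zileuton livers, against 0.209, 0.681 and 3.21 CPM in vehicle livers. Its log2 fold change was 1.00 (SE 0.18, adjusted p = 9.23e-06). Between these lay Kif2c, a microtubule depolymerase (2.84-fold), Kif20a and Kif20b, which act in cytokinesis (2.48-fold and 2.23-fold), the chromosome-binding Kif22 (2.12-fold) and Kif23, a subunit of centralspindlin (2.06-fold). Kif15, which backs up Kif11, was too low for the test at medians of 0.323 CPM in zileuton livers and 0.112 CPM in vehicle livers.

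Proteins that build and bundle spindle microtubules included several of the largest changes, with 6 of 6 higher and a median log2 fold change of 1.97. Ckap2, a microtubule stabiliser, had 0.0447, 0.782 and 23.4 CPM in zileuton livers, against 0, 0.152 and 7.22 CPM in vehicle livers. It rose 5.11-fold (log2 2.35, SE 0.40, adjusted p = 2.32e-06), or by 3.14 on the log2 scale without vehicle replicates 15, 28 and 37. Hmmr, a spindle assembly protein first described as a hyaluronan receptor, rose by 2.32 on the log2 scale, and Ckap2l, a relative of Ckap2, by 2.04. Tpx2, which activates Aurora A on the spindle, rose 3.71-fold although Aurka RNA itself did not pass. Prc1, which bundles microtubules of the central spindle, rose 3.44-fold. Nusap1, a microtubule bundling protein, rose least, with 0.174, 0.946 and 9.18 CPM in zileuton livers, against 0, 0.377 and 2.47 CPM in vehicle livers (2.74-fold, SE of log2 0.23, adjusted p = 4e-07).

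All 3 cytokinesis genes rose, with a median log2 fold change of 1.17. Racgap1, the other subunit of centralspindlin, had 0.323, 1.08 and 12.9 CPM in zileuton livers, against 0.0630, 0.410 and 5.06 CPM in vehicle livers, and rose 3.28-fold (log2 1.72, SE 0.25, adjusted p = 8e-08). Anln, anillin of the contractile ring, had the smallest called change of all members. It lay at 0.394, 1.67 and 8.08 CPM in zileuton livers, against 0.427, 0.888 and 3.52 CPM in vehicle livers (1.71-fold, log2 0.78, SE 0.17, adjusted p = 0.000281). Ect2, the exchange factor that activates RhoA at the cleavage furrow, rose 2.25-fold (log2 1.17, SE 0.21). Some of its highest livers were not high for the set as a whole, as noticed after its values were seen. After replicate 7 (17.7 CPM), the highest zileuton livers for Ect2 were replicates 38, 36 and 48 with 9.70, 9.28 and 9.08 CPM, yet their summed levels of all 40 genes were 46.4, 42.8 and 43.9 CPM, near the zileuton median. The highest for Mki67 after replicate 7 were replicates 4, 10 and 35, with summed levels of 197, 168 and 150 CPM. By animal number, replicates 38 and 36 lay in run 6 and replicate 48 in run 8. Replicates 4, 10 and 35 lay in runs 1, 2 and 5. The part of the run in Ect2 levels was not tested.

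Both chromosome proteins rose. Mki67, the Ki-67 antigen used to stain dividing cells, had 1.02, 3.90 and 39.4 CPM in zileuton livers, against 0.438, 1.55 and 13.1 CPM in vehicle livers. It rose 3.04-fold (log2 1.61, SE 0.25, adjusted p = 2.31e-07), with 46 zileuton livers above the vehicle median. Top2a, the topoisomerase that untangles sister chromatids, had 0.541, 2.39 and 20.8 CPM in zileuton livers, against 0.189, 0.567 and 8.21 CPM in vehicle livers (3.48-fold, log2 1.80, SE 0.26, adjusted p = 6.08e-08). Per kilobase of exon, median levels among members ran in zileuton livers from 0.0293 CPM per kb for Kif15 to 0.789 for Cdc20, and in vehicle livers from 0.0101 for Kif15 to 0.751 for Aurka. Aurka and Cenpa, which were not called, were the 2 highest per kb in vehicle livers, Cenpa at 0.443. In zileuton livers Cdc20 (0.789) and Aurka (0.765) lay side by side, within the spread of either gene between animals.

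**Figure D3:**
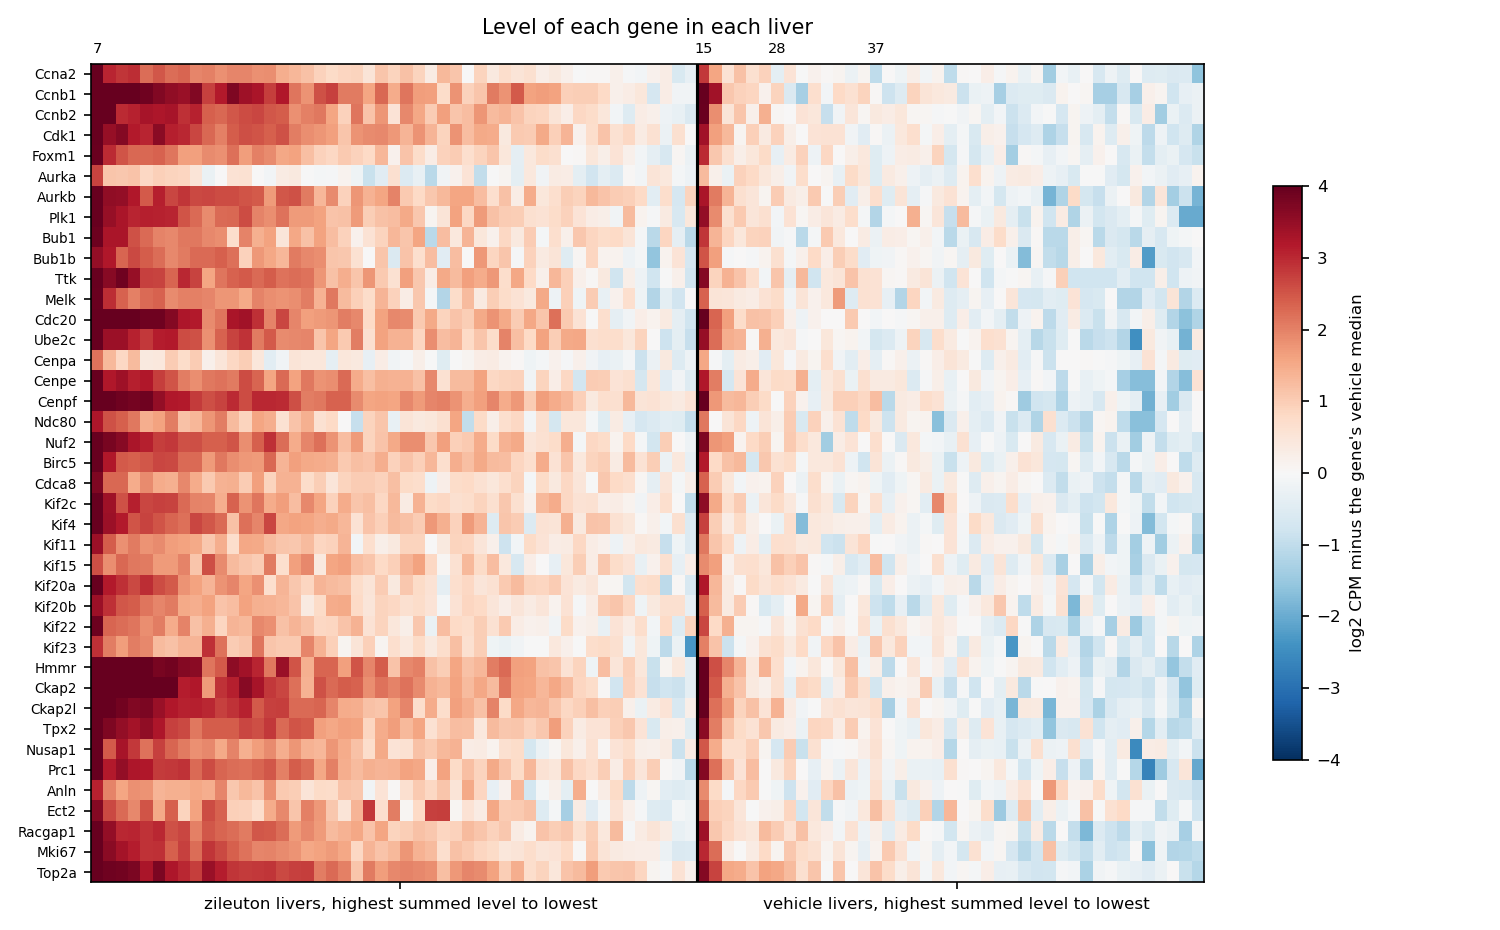
Level of each of the 40 genes (rows, by role) in each liver (columns), as log2 CPM minus the gene's median in vehicle livers, with colours saturating at 4 either way; zileuton livers stand left of the black line and vehicle livers right, each sorted by summed level, and numbers mark zileuton replicate 7 and vehicle replicates 15, 28 and 37. Red fades from left to right within the zileuton livers for most genes together, Aurka and Cenpa stay pale, and vehicle replicate 15 is red throughout.

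The 5 members with too few counts had medians of 7 to 8 counts in zileuton livers and 2 to 4 in vehicle livers. In a fit of all 18223 genes without the low-count filter they had log2 fold changes of 1.69 (Bub1), 2.10 (Ttk), 1.74 (Melk), 1.27 (Ndc80) and 1.36 (Kif15), and all were called. In that fit 38 of 40 members were called higher, where 11.8% of all genes were. The other 35 had median counts from 12 (Nuf2) to 98 (Mki67) in zileuton livers. In vehicle livers their medians ran from 3 (Ccnb1 and Nuf2) to 73 (Cenpa). The largest folds lay at the low end, with vehicle medians of 3 counts for Ccnb1 and 4 for Ckap2 and Hmmr. Single values under about 0.1 CPM therefore rest on a few reads each. Removing 1 library at a time lost the call of 0 members in 90 fits. Without zileuton replicate 7 the median log2 fold change of the 35 was 1.49, and without vehicle replicate 15 it was 2.01. That vehicle library alone changed 4 folds by more than 1.5 times. Without it the log2 values were 3.10 for Ccnb1, 3.14 for Ckap2, 2.99 for Hmmr and 2.67 for Cdc20.

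Some exons lie on those of a neighbour, and the library kit does not keep the strand of the RNA. The shared stretch covers 29.3% of the exon length of Kif20a (with Cdc23), 22.8% of Ube2c (with Tnnc2), 15.1% of Kif4 (with Pdzd11), 12.5% of Ccna2 (with Exosc9) and 11.1% of Prc1 (with Rccd1). Levels of these 5 may include reads of the neighbour. The other overlaps found covered less of the member.

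Within an arm, livers high for Mki67 were high for the other members. In zileuton livers all 39 relations with Mki67 passed (Pearson and Spearman on log2 CPM, 100000 permutations, two-sided, adjusted over 78 relations in both arms). Spearman rho ran from 0.516 (Aurka) to 0.965 (Top2a) with a median of 0.880 (n = 49), Pearson r had a median of 0.901, and the lowest adjusted permutation p for rho was 2e-05. Without zileuton replicates 4 and 7, the farthest from the Mki67 median, all 39 still passed and the median rho was 0.864. In vehicle livers 32 of 39 passed by rho and 38 by r, with rho from 0.010 (Cenpa) to 0.666 (Top2a) and a median of 0.466 (n = 41), and a median r of 0.622. Without vehicle replicates 15 and 9, the farthest, 26 passed by rho and 21 by r, with medians of 0.381 and 0.343, so many of the vehicle r values rested on those 2 livers. Without vehicle replicates 15, 28 and 37, 29 passed by rho and 30 by r. With run means removed, 39 passed by rho in zileuton livers and 36 in vehicle livers. The difference in rho between arms was not tested, and lower counts in vehicle livers move with it. Among 13213 tested genes outside the set, 0.742% had a rho above 0.5 with Mki67 in zileuton livers and 0.363% in vehicle livers, where 39 and 15 members did.

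**Figure D4:**
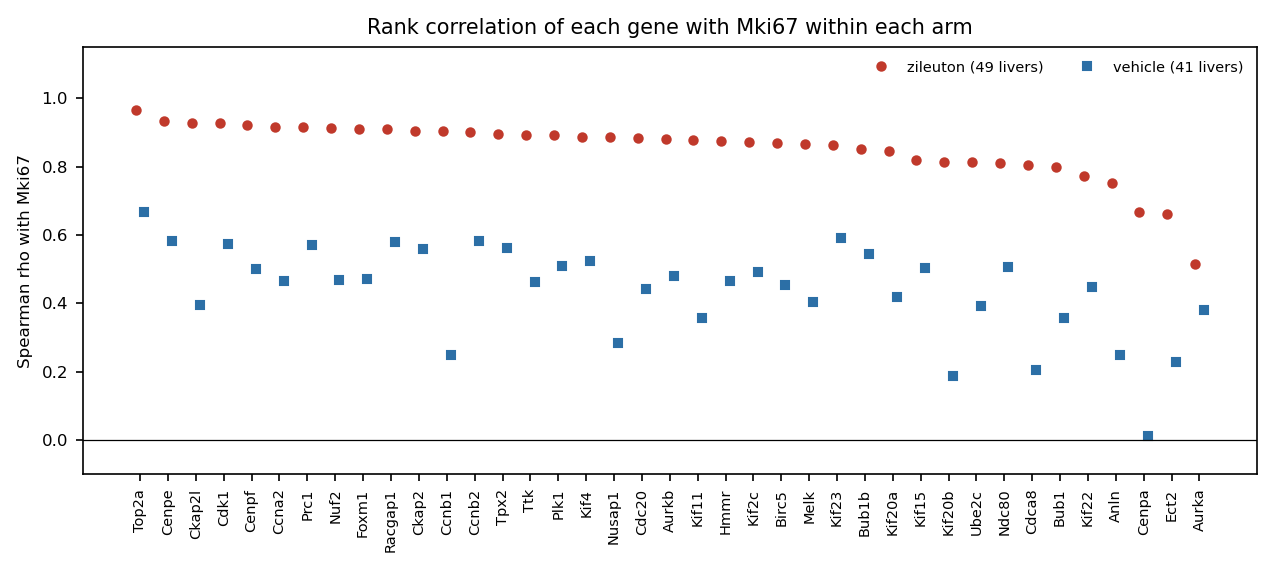
Spearman rho between Mki67 and each other member across the 49 zileuton livers (red circles) and across the 41 vehicle livers (blue squares), ordered by the zileuton value. Zileuton values run from 0.965 for Top2a to 0.516 for Aurka, and vehicle values from 0.666 for Top2a to 0.010 for Cenpa.

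The spread between animals was tested as well as the level. All 30 members above the floor for this test had a wider spread in log2 CPM among zileuton livers, yet 0 were called by limma after adjustment, with 10 at an unadjusted p under 0.05, where 0.0234% of all genes were called wider. Of all 12808 genes in this test, 6498 had the wider spread among zileuton livers. Members varied together across livers, so these counts are not of independent genes. Without vehicle replicate 15, or without vehicle replicates 15, 28 and 37, Ccnb2 was the only member called wider. In each case 18 members had an unadjusted p under 0.05. In the fit without replicate 15 alone, 4 of 12802 genes were called wider. In the fit without the 3 libraries 0.164% of all genes were called wider. With a prior count (added before taking logs) of 0.5 in place of 2, 21 of 23 members had the wider spread under zileuton. In that fit 0 members and 2 of 12608 genes were called wider. The floor is a mean over both groups and member counts were lower in vehicle livers, so spread was not separated from level.

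Coat colour follows inherited pigment alleles in this stock. In agouti animals the median summed level was 47.95 CPM in 34 zileuton livers and 19.8 CPM in 29 vehicle livers. Black animals had medians of 46.9 CPM in 6 zileuton livers and 23.3 CPM in 6 vehicle livers, and white animals 40 CPM in 9 zileuton livers and 25.4 CPM in 6 vehicle livers. Thus the zileuton median was the higher in each coat class. In edgeR fits, 0 of 35 members were called for white against agouti, where 0.00755% of all genes were, with 1 member at an unadjusted p under 0.05. For black against agouti 0 members were called, where 0.0453% of all genes were, with 1 at an unadjusted p under 0.05. For the interaction of treatment with coat 0 members and 0% of all genes were called, with 0 members at an unadjusted p under 0.05. Small coat groups limit what these tests could find.

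Other genes of the cell cycle rose in part, where 14.4% of all genes tested were called higher. In either direction 3878 of 13248 genes were called. Of 17 tested genes of the spindle, centrosome and cytokinesis outside the set, 11 rose and 0 fell, with a median log2 fold change of 0.80. The largest rises were of Iqgap3 (2.20, SE 0.33), Spag5, or astrin (1.82, SE 0.29), and the centrosome kinase Nek2 (1.66, SE 0.20). Of 25 other kinetochore and checkpoint genes 12 rose and 3 fell, with a median of 0.09. Dsn1 (1.12), Zwilch (1.06) and Spc25 (0.94) rose most, while Mis12 (-0.20), Mad1l1 (-0.16) and Bub3 (-0.11) fell. Among 17 genes of chromosome condensation and cohesion 8 rose and 3 fell, with a median of 0.08. Separase, Espl1 (1.33), and the condensin subunits Ncaph (0.96) and Ncapg2 (0.67) rose most, and the cohesin genes Smc3 (-0.24), Stag1 (-0.18) and Wapl (-0.13) fell. Of 25 regulators of mitotic entry and exit 12 rose and 2 fell, with a median of 0.11. Pbk, a mitotic kinase (2.49, SE 0.34), Wee1, which restrains Cdk1 and is known to follow the clock in mouse liver (1.75, SE 0.20), and Cdca2 (1.32, SE 0.24) rose most, and Cks2 (-0.24) and Cdc26 (-0.13) fell.

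Earlier steps of the cycle were listed apart, again where 14.4% of all genes tested were called higher. For DNA replication 19 of 37 tested genes rose and 0 fell, with a median log2 fold change of 0.19 and the largest rises in Uhrf1 (1.34), Gins2 (1.16) and Chaf1b (1.07). For G1 control and S phase entry 8 of 23 rose and 1 fell, with a median of 0.09. Cyclin E genes led, Ccne1 at 1.56 (SE 0.20) and Ccne2 at 0.79 (SE 0.15), followed by E2f1 at 0.68, and E2f4 fell (-0.12). In the DREAM and MuvB complexes 4 of 7 rose and 1 fell, with Mybl1 (0.68), Lin9 (0.39) and Lin54 (0.27) rising most and Lin37 (-0.15) falling. Of 5 tested inhibitors of cyclin-dependent kinases Cdkn2c (0.38) and Cdkn2d (0.23) rose and Cdkn1b (-0.13) fell. Cyclin D1, Ccnd1, which is the most abundant of the G1 list, averaged 45.7 ± 26.7 CPM in zileuton livers and 45.3 ± 26.8 CPM in vehicle livers (SD, n = 49 and 41).

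**Figure D5:**
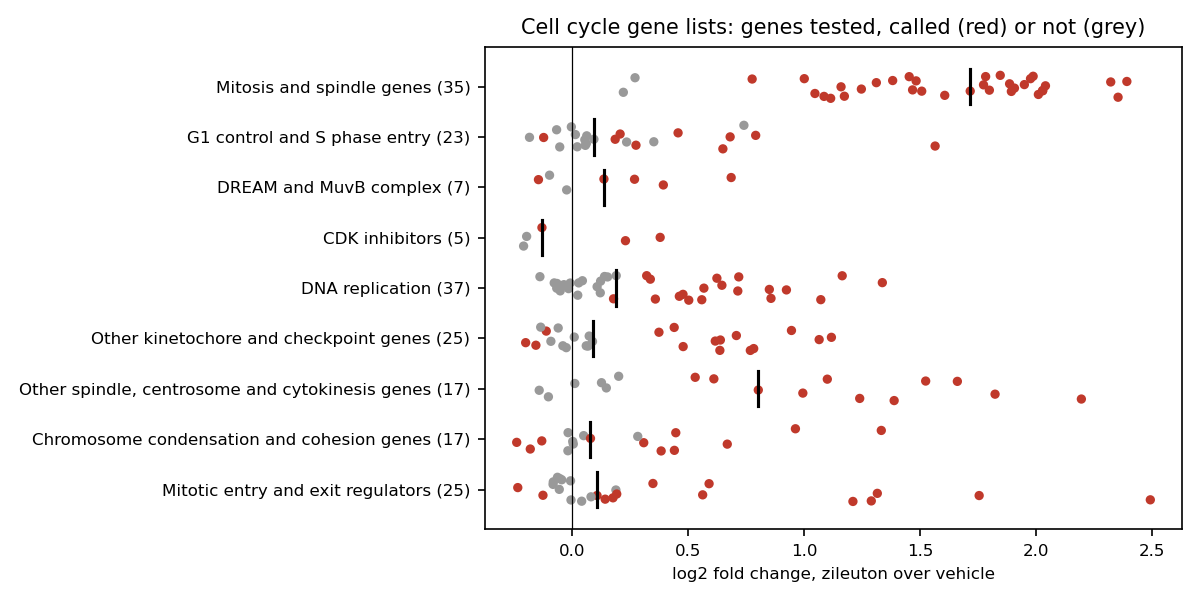
Log2 fold change, zileuton over vehicle, of each tested gene in the mitosis and spindle set and in 8 other cell cycle lists (numbers of genes in brackets), red where called and grey where not, with black lines at list medians. The mitosis and spindle set has its median at 1.72 and the other spindle list at 0.80, and the other lists have medians between -0.13 and 0.19.

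Markers of blood cells that a liver sample can hold were read in the same libraries (means ± SD, n = 49 zileuton and 41 vehicle livers). Over all genes tested, 3878 of 13248 were called in either direction. Of 8 tested erythroid markers 0 were called, and the 14 summed to 110 to 788 CPM in zileuton livers and 90.5 to 1138 CPM in vehicle livers, with Hba-a1 the highest at 112 ± 69.2 CPM in zileuton livers and 127 ± 82.0 CPM in vehicle livers. Of 3 tested neutrophil markers only S100a9 was called (-1.29), and the 13 summed to 4.52 to 322 CPM in zileuton livers and 1.605 to 580 CPM in vehicle livers, mostly Lcn2, which hepatocytes also make (45.6 ± 55.4 CPM in zileuton livers and 33.9 ± 76.6 CPM in vehicle livers). The granule genes of precursors, Mpo, Elane and Prtn3 among them, were too low for the test. For T and NK cells 0 of 8 rose and Cd3d (-0.50), Cd3g (-0.49) and Lck (-0.45) fell, with sums over 14 genes of 2.11 to 14.6 CPM in zileuton livers and 3.04 to 12.6 CPM in vehicle livers. For B and plasma cells 0 of 6 rose and Sdc1, which hepatocytes also make, fell (-0.22, 359 ± 94.2 CPM in zileuton and 420 ± 83.5 CPM in vehicle livers), with sums over 10 genes of 216 to 686 CPM in zileuton livers and 253 to 655 CPM in vehicle livers. Platelet markers had 0 of 4 called, with sums over 8 genes of 2.11 to 6.76 CPM in zileuton livers and 1.64 to 10.4 CPM in vehicle livers. The highest of them, Itga2b, averaged 2.33 ± 0.659 CPM in zileuton livers and 2.41 ± 0.916 CPM in vehicle livers. Macrophage markers had 0 of 13 called, with sums of 96.5 to 623 CPM in zileuton livers and 54.1 to 922 CPM in vehicle livers. Cd5l, the highest, averaged 72.4 ± 45.6 CPM in zileuton livers and 71.4 ± 45.9 CPM in vehicle livers.

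Markers of resident liver cells were called in either direction, as were 3878 of all 13248 genes tested. Of all genes tested, 14.4% were called higher. Whether the share called in any list differed from that of all genes was not tested. Endothelial markers had 2 of 10 higher (Vwf 0.37, Tie1 0.20) and 2 lower (Tek -0.26, Clec4g -0.18), with sums of 116 to 270 CPM in zileuton livers and 130 to 245 CPM in vehicle livers. Stellate cell and fibroblast markers had 1 of 11 higher (Col1a1 0.47) and 2 lower (Pdgfrb -0.28, Dcn -0.21), with sums of 180 to 503 CPM in zileuton livers and 184 to 518 CPM in vehicle livers. Of 7 tested cholangiocyte markers 0 rose and 2 fell, Sox9 (-0.86) among them, with sums over 9 genes of 28.7 to 91.4 CPM in zileuton livers and 34.7 to 80.9 CPM in vehicle livers. Spp1, the highest, averaged 30.01 ± 11.4 CPM in zileuton livers and 32.8 ± 10.4 CPM in vehicle livers. Of 10 hepatocyte markers Cyp2e1 (0.25) rose and 6 fell, Ass1 (-0.43), Apoa1 (-0.30), Ttr (-0.24) and Cps1 (-0.22) by the most, with sums of 76393 to 173642 CPM in zileuton livers and 92997 to 186646 CPM in vehicle livers. No marker was at 0 in every library. Zileuton replicate 7 had the highest mitotic sum. Its erythroid (381 CPM), neutrophil (73.0 CPM), platelet (3.92 CPM) and cholangiocyte (60.5 CPM) marker sums lay above both arm medians. Its macrophage (167 CPM), T and NK (2.56 CPM), B and plasma (313 CPM) and stellate (240 CPM) sums lay below both. The hepatocyte sum (124186 CPM) lay between the medians, and the endothelial sum (180 CPM) at the zileuton one. Only the T and NK sum lay outside the range of vehicle livers, below it. The part of other cell types in the levels of the mitosis and spindle genes was not tested.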

How the data were processed

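The authors deposited 2 tables of 90 livers. The raw table holds estimated counts (expected counts per gene, 76.7% of them whole), and the second holds a signal, the rounded counts of each library divided by 1 size factor, a ratio constant to within 5.0e-06 over values above 50 counts in the deposited tables. Partek, STAR, DESeq2 and the mm10 build appear, without versions, in the submitters' processing notes. How reads were counted, and with which annotation, is not given in the sources used here. Replicates are numbered within a group in the order of accession.

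Counts were rounded and tested with edgeR 4.0.16 (quasi-likelihood, TMM, filterByExpr, Benjamini-Hochberg, two-sided), on 13248 genes with a biological coefficient of variation of 32.1%. CPM use TMM factors. Spread was tested with limma 3.58.1 on each liver's distance from its arm's median log2 CPM (prior count of 2, for genes averaging at least -1). The fits were tested on simulated counts of independent genes, which leave out the joint variation and the extreme livers seen here. Coordinates of exons are from GENCODE M21, matched by symbol for 17848 genes (97.9%). Even the 2 most similar libraries, zileuton replicate 11 and vehicle replicate 28, were far apart (chi-square 37.4 per gene), and none was treated as a copy. Full values were given for the called members with the largest and smallest change in each role and for Mki67 and Top2a, for members not tested, for up to 3 called genes per direction in each pathway list, and for the highest and up to 4 called genes in each marker list; 1 gene that the rule names is not reported here. The members, lists and tests were chosen with earlier results of these data known, and leaving out vehicle replicates 15, 28 and 37 was chosen after seeing the data. Counting error limits precision at low counts, and the spread between animals adds to it. Reads were counted without molecular identifiers.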

Additional observations from a re-analysis of the deposited data

How the results depend on the processing

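Over 24 other settings and 90 fits without 1 library each, no member changed direction. The number of members called ran from 33 to 34 and that of all genes from 3752 to 4085 when 1 library was left out. With a mean CPM of at least 1 over all 90 livers required, 21 of 23 tested members were called higher, where 1829 of 12028 genes were. All genes called numbered 217 with position in the run as a term, 384 with the clock score, and 466 without vehicle replicates 15, 28 and 37 and with position, against 3878; the position term extrapolates, since positions do not overlap between groups, and the cause was otherwise not tested. In that last fit 32 of 35 members were called higher (2.47% of all genes). With position as a term 4 more members missed the threshold at log2 fold changes of 1.39 (Bub1b, against 1.48 without the term), 0.95 (Kif23, against 1.05), 1.12 (Anln, against 0.78) and 1.19 (Kif20b, against 1.16). With the clock score 6 more did, at 1.03 (Bub1b), 0.66 (Kif23), 0.61 (Anln), 0.99 (Kif2c), 0.91 (Kif20a) and 0.93 (Ect2). Kif23 also missed it in the combined fit, at 1.10 (adjusted p = 0.117, edgeR). Cenpa passed under 6 settings, including DESeq2 (log2 fold change 0.28, adjusted p = 0.0488) and without run 3 (0.39, adjusted p = 0.00882). Of 824 member values over the 24 settings, 807 kept their call and direction, 11 lost the call and 6 gained it. In the spread test 1 member was called without vehicle replicate 15, where 4 of 12802 genes were called wider. Without replicates 15, 28 and 37 it was 1 member, where 21 of 12803 genes were. On the authors' values with a pseudocount of 8 the median log2 fold change was 0.97. No paired analysis was possible because the labels give animal numbers and no replicate numbers shared between the groups. Low counts, down to medians of 2 in vehicle livers, limit the precision of the lowest members.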
